A study of Mus musculus with 4 samples.

Results

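The collagen chain genes encode the alpha chains that assemble into the collagens, the main structural proteins of the extracellular matrix. A family of 38 such genes was followed, chosen by symbol through the accession that the array lists for each probe. Of these, 34 had a matched probe, and the remaining 4, Col6a3, Col12a1, Col20a1 and Col22a1, had none and are not analysed here. All 34 passed the filter on dim probes, among 31077 genes or accessions tested. The tissue was liver of 3-month-old male C57Bl/6 mice, all of which carry a mutant Wrn protein, the helicase affected in Werner syndrome. Treated animals had drunk water with 0.4% vitamin C from weaning, and untreated Wrn mutants served as controls, so no liver with normal Wrn entered the comparison. Each of 4 arrays held 1 treated liver, labelled with Cy3, against 1 untreated liver, labelled with Cy5, and the labels call these biological replicates 1 to 4.

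Collagen chains wind around each other into a helix that is stable only if prolyl hydroxylases have first acted on the chains. These enzymes use vitamin C (ascorbate) to keep their iron reduced. Lysyl hydroxylases, which prepare the chains for crosslinking, depend on ascorbate in the same way. In liver, stellate cells and portal fibroblasts are known as the main source of fibrillar collagens, endothelial cells contribute basement membrane collagen, and hepatocytes make type XVIII.

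Values are log2 ratios of Cy3 over Cy5, which is vitamin C over untreated by the dye labels, and the table of log2 values that the authors deposited runs the other way. A value of 0 means equal signal, and errors are SDs over 4 arrays. The labels give no array with swapped dyes, so a dye effect of a probe and an effect of vitamin C cannot be told apart. Median raw intensities were 380 to 530 in Cy3 and 813 to 962 in Cy5, against 62 to 67 and 66 to 80 on negative control spots. Replicate 2 stood apart: over all genes its log2 ratios correlated with those of replicates 1, 3 and 4 at r = 0.020, -0.15 and -0.18, whereas the other pairs of arrays lay between 0.60 and 0.78 (across genes, which are not independent replicates). Over the 34 collagen chain genes the corresponding values were 0.11, 0.011 and 0.16 with replicate 2, and 0.49 to 0.65 among the other arrays. Of 7 hepatocyte markers tested, 7 were well above background in both channels on all arrays, but so were 96.4% of all genes tested. Wrn itself had a mean log2 ratio of -0.0016 ± 0.054 (SD, n = 4), and both livers on an array carry the mutant protein.

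No collagen chain gene passed the test between vitamin C and untreated livers, and the mean differences were small in both directions. The extremes were Col16a1, a fibril-associated chain, at 1.21-fold and Col15a1, a basement membrane zone chain, at 0.842-fold, and 0 of 34 reached 1.25-fold either way, against 8.05% of all genes tested. With limma, 0 of 34 collagen chain genes and 0 of 31077 genes (0%) had a Benjamini-Hochberg adjusted p under 0.05. The collagen chain genes ran from an adjusted p of 0.145 to 0.907. At an unadjusted p under 0.05, 1 collagen chain gene was higher (2.94% of 34, against 11.1% of all genes) and 6 were lower (17.6%, against 16.5%). The 1 above was Col16a1, and the 6 below were Col15a1, Col17a1, Col18a1, Col4a3, Col4a2 and Col2a1. At the adjusted threshold, limma on the deposited log2 table also gave 0 of 34 (0% of all genes), as did a fit of the separate channels, in which 1.79% of all genes passed as higher and 1.07% as lower. In either direction together, 7 collagen chain genes (20.6%) had an unadjusted p under 0.05, against 27.7% of all genes.

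The signs of the ratios on single arrays were mixed. Ratios were above 0 on every array for 5 collagen chain genes (14.7%, against 14.9% of all genes), namely Col16a1, Col19a1, Col4a4, Col25a1 and Col6a2. They were below 0 on every array for 10 (29.4%, against 16.1%), namely Col15a1, Col17a1, Col18a1, Col4a2, Col4a3, Col2a1, Col4a6, Col7a1, Col9a2 and Col9a3. The same sign on all 4 arrays was thus seen for 15 of 34 (44.1%, against 30.9%). A mean above 0 was found for 20 of 34 (58.8%, against 46.1% of all genes). The median of the 34 means was 0.030, against -0.015 over all genes, and it was -0.042 where arrays were centred without loess. On single arrays the median over the 34 genes was -0.029, -0.017, 0.015 and 0.012 in replicates 1 to 4. The limma 95% interval, which is not adjusted for the number of genes, lay within 1.5-fold of no difference for 34 of 34 collagen chain genes. It lay within 1.25-fold for 26, and the outermost bounds were -0.49 and 0.47 in log2. Such shares were not computed over all genes, so whether these counts are particular to collagen chain genes is not known. The bounds are those of the run with loess, and without loess the mean of Col4a5 was 0.54. The call depended on replicate 2 and on the loess step. Without replicate 2, 3 of 34 passed (Col16a1 higher, Col1a1 and Col2a1 lower), where 10.1% of all genes passed as higher and 18.1% as lower. Without loess, 10 of 34 passed, where 14.0% of all genes passed as higher and 17.0% as lower. The 3 higher were Col10a1, Col4a5 and Col9a1, and the 7 lower were Col18a1, Col1a1, Col2a1, Col4a1, Col4a2, Col4a6 and Col9a2. The split without loess followed brightness, where rank 1 of 34 is the brightest gene. In the order named, the higher genes ranked 33, 34 and 32, and the lower genes 1, 7, 9, 10, 13, 2 and 8. Col5a3, Col14a1, Col3a1 and Col1a2, at ranks 3, 4, 5 and 6, did not pass. Whether brightness had a part in these calls was not tested.

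**Figure D1:**
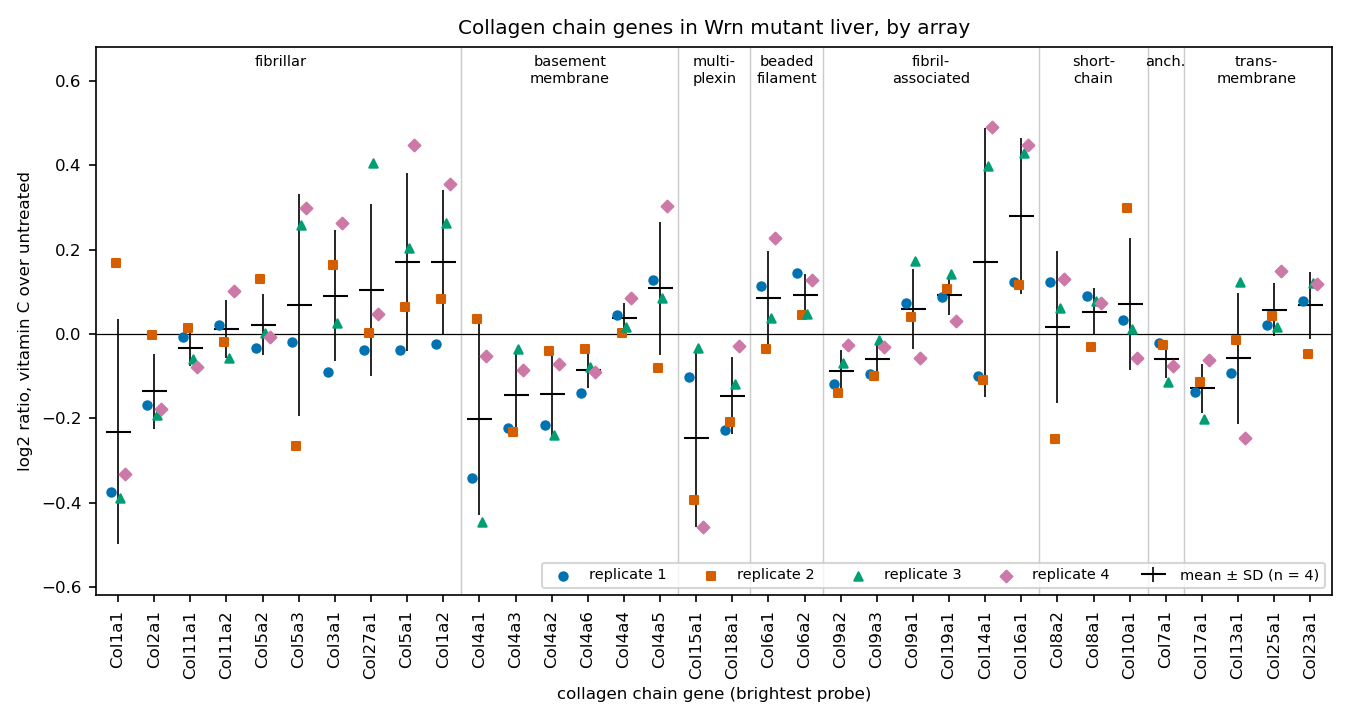
Log2 ratio of vitamin C over untreated (vertical axis) for 34 collagen chain genes (horizontal axis), grouped by collagen class, with a symbol for each of the 4 replicates and a bar for mean ± SD; "anch." marks the anchoring fibril chain Col7a1. The means lie between -0.25 and 0.28, and the replicates of Col1a1, Col5a3 and Col14a1 lie on both sides of 0.

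The chains of type I collagen, the most abundant fibrillar collagen, did not lie on the same side of 0. Col1a1 had normalized intensities of 2659, 3773, 3339.6 and 3923 in treated livers and 3447, 3357, 4371 and 4936 in their untreated partners, for replicates 1 to 4. Its log2 ratios were -0.37, 0.17, -0.39 and -0.33, a mean of -0.23 ± 0.27 (SD, n = 4). Col1a1 was lower in the treated liver on 3 arrays and higher on replicate 2. Col1a2, which pairs with Col1a1 in the type I trimer, had 3910.0, 3803, 4109.6 and 5157 in treated and 3975, 3589, 3422 and 4032 in untreated livers. Its ratios were -0.024, 0.084, 0.26 and 0.36, a mean of 0.17 ± 0.17 (SD, n = 4), above 0 on 3 arrays. The log2 ratio of Col1a2 exceeded that of Col1a1 by 0.35, 0.65 and 0.69 on replicates 1, 3 and 4 and was 0.085 lower on replicate 2 (a difference of -0.085), a mean of 0.40 ± 0.36 (SD, n = 4). Neither gene passed limma's test, at adjusted p = 0.211 for Col1a1 and 0.202 for Col1a2.

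The fibrillar chains Col3a1, Col5a1, Col5a2 and Col5a3 each had ratios on both sides of 0. Col3a1, whose homotrimer forms the thin reticular fibres of liver together with type I, had 5269.9, 5376, 4694 and 6965 in treated and 5612, 4802, 4609.5 and 5803 in untreated livers. Its ratios were -0.091, 0.16, 0.026 and 0.26, a mean of 0.090 ± 0.15 (SD, n = 4). Type V collagen sets the diameter of type I fibrils. Its chain Col5a1 had 1142, 1014, 1149 and 1612 in treated and 1172, 971, 998 and 1181 in untreated livers. The ratios of Col5a1 were -0.037, 0.064, 0.20 and 0.45, a mean of 0.17 ± 0.21 (SD, n = 4), with the highest value on replicate 4. Col5a2, a neighbour of Col3a1 in the genome, had 594, 625, 600.2 and 659 in treated and 608, 572, 599 and 663 in untreated livers. Its ratios were -0.034, 0.13, 0.0019 and -0.0079, a mean of 0.022 ± 0.073 (SD, n = 4), with the same sign as Col3a1 on 3 of 4 arrays. The third type V chain, Col5a3, had 6144, 4458, 6056 and 7019 in treated and 6228, 5358, 5063 and 5703 in untreated livers. Its ratios of -0.019, -0.27, 0.26 and 0.30 were spread on both sides of 0, lowest on replicate 2, with a mean of 0.068 ± 0.26 (SD, n = 4).

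Chains best known from cartilage completed the fibrillar class. Col2a1, the main cartilage chain, had 3358, 3729, 3067 and 3361 in treated and 3775, 3737, 3502 and 3803 in untreated livers. Its ratios were -0.17, -0.0028, -0.19 and -0.18, a mean of -0.14 ± 0.089 (SD, n = 4) with adjusted p = 0.175 in limma. Col2a1 was below 0 on every array, but only barely on replicate 2. The minor cartilage chains Col11a1 and Col11a2 had means of -0.033 ± 0.044 (SD, n = 4) and 0.012 ± 0.068 (SD, n = 4), and Col27a1, also a cartilage chain, had 0.10 ± 0.20 (SD, n = 4) with 1 high array, replicate 3 at 0.40. Of the 10 fibrillar chains, 7 had a mean above 0, and the median of their means was 0.045.

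**Figure D2:**
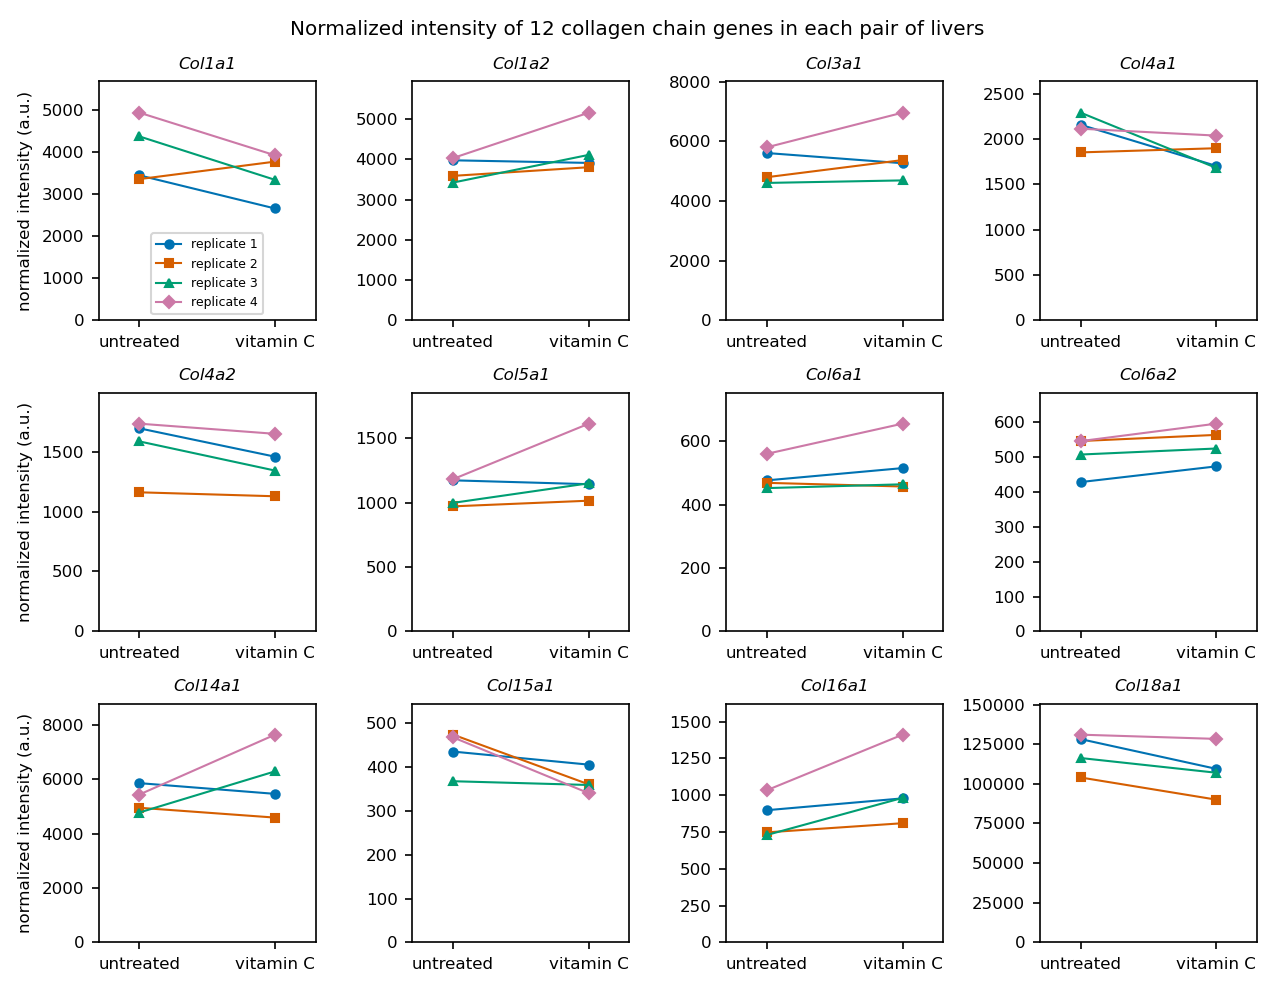
Normalized intensity in arbitrary units (vertical axis, starting at 0) of 12 collagen chain genes in the untreated and the vitamin C liver of each array, joined by a line per replicate. For Col1a1 and Col4a1 the line of replicate 2 runs up while the other 3 run down; for Col16a1 all 4 run up and for Col15a1 and Col18a1 all 4 run down.

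Basement membrane collagen, type IV, forms the sheet-like network under epithelia and around vessels. Its chains Col4a1 and Col4a2 assemble together and are encoded head to head on mouse chromosome 8, with start sites close enough that their promoter windows overlap. The RefSeq windows (250 bases before to 50 after each start, GRCm38.p6) are shown because these 2 genes can be read as a pair in the arrays. They span chr8:11312777-11313076 on the minus strand for Col4a1 and chr8:11312555-11312854 on the plus strand for Col4a2. Capitals mark the 78 bases that the windows share, each printed 5′ to 3′ on the strand of its own gene.
Col4a1: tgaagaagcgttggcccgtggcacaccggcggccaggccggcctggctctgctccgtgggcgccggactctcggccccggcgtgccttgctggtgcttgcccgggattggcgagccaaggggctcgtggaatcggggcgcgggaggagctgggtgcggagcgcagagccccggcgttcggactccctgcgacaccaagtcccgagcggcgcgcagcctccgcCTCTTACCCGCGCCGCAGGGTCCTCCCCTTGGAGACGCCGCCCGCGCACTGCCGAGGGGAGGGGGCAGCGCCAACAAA
Col4a2: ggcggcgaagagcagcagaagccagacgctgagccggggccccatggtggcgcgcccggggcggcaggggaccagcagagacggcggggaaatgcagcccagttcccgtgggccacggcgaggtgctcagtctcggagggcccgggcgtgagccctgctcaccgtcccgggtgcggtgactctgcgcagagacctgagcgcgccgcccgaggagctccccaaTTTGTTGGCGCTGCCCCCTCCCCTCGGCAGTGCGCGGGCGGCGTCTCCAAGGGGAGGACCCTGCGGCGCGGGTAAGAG
The window of Col4a1 holds 1 GC box (GGGCGG) and that of Col4a2 holds 3, of which 1 lies in the shared bases. Each holds 1 CCAAT, which in Col4a2 runs across the border of the shared bases, and neither holds TATAAA, searched on both strands. A GC box occurs in 35.7% of all 32851 promoter windows, a CCAAT in 37.4% and a TATAAA in 13.6%. Windows were found for 30 of the 38 collagen chain genes, 33 windows in all. A GC box was in 20 of the 33 (60.6%), a CCAAT in 12 (36.4%) and a TATAAA in 5 (15.2%). Such matches describe the letters only.

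Col4a1 had normalized intensities of 1702, 1898, 1681 and 2037 in treated and 2156, 1852, 2289.6 and 2113 in untreated livers, and ratios of -0.34, 0.035, -0.45 and -0.053. Col4a2 had 1458, 1128, 1342 and 1648 in treated and 1694, 1161, 1585 and 1733 in untreated livers, and ratios of -0.22, -0.042, -0.24 and -0.072. Both were lowest on replicates 1 and 3 and nearest 0 on replicates 2 and 4. Their means were -0.20 ± 0.23 (SD, n = 4) and -0.14 ± 0.10 (SD, n = 4), at adjusted p = 0.215 and 0.174 in limma. The ratio of Col4a2 minus that of Col4a1 was 0.058 ± 0.13 (SD, n = 4), and they had the same sign on 3 of 4 arrays. A second probe of each gene gave -0.13 ± 0.15 for Col4a1 and -0.12 ± 0.068 for Col4a2 (SD, n = 4). Replicates 1 and 3 were again below replicates 2 and 4 for the second probe of Col4a1. The second probe of Col4a2 did not repeat this order: replicate 3 was the lowest, but replicate 4 at -0.14 lay below replicate 1 at -0.12.

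The other type IV chains, known best from the kidney glomerulus and from smooth muscle and epithelial basement membranes, did not share a direction. Col4a3 had 364, 412, 422 and 481 in treated and 425, 484, 433 and 510.1 in untreated livers. Its ratios of -0.22, -0.23, -0.037 and -0.085 were below 0 on every array, a mean of -0.14 ± 0.10 (SD, n = 4) at adjusted p = 0.171 in limma. Col4a4, which is also encoded head to head with another type IV chain, Col4a3, was above 0 on every array at 0.046, 0.0023, 0.015 and 0.084, a mean of 0.037 ± 0.036 (SD, n = 4). The pair therefore had the same sign on 0 of 4 arrays, and their difference, Col4a4 minus Col4a3, was 0.18 ± 0.096 (SD, n = 4). Col4a6 had 5346, 5763, 5416 and 6739 in treated and 5889, 5909.6, 5722 and 7175 in untreated livers, and ratios of -0.14, -0.036, -0.079 and -0.090. Its head-to-head neighbour Col4a5 was the dimmest of the 34 genes. It had 113, 98.4, 116 and 138 in treated and 103, 104, 110 and 112 in untreated livers, values that include the offset of 50. Raw Cy3 intensity of Col4a5 was 89.5 to 120.5, against 62 to 67 on negative control spots. The ratios of Col4a5 were 0.13, -0.081, 0.084 and 0.30, above 0 on all arrays but replicate 2. Their means were -0.086 ± 0.042 (SD, n = 4) for Col4a6 and 0.11 ± 0.16 (SD, n = 4) for Col4a5, and they had the same sign on 1 of 4 arrays. Of the 6 type IV chains, 2 had a mean above 0, and the median of their means was -0.11.

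Types XV and XVIII are proteoglycan collagens of the basement membrane zone. Col15a1 had 406, 361, 359 and 341 in treated and 436, 474, 368 and 468 in untreated livers, and ratios of -0.10, -0.39, -0.034 and -0.46. Its mean of -0.25 ± 0.21 (SD, n = 4) was the lowest among the collagen chain genes, at adjusted p = 0.159 in limma, and its lowest arrays were replicates 2 and 4. Col18a1, the precursor of the fragment endostatin, had 109452, 90038, 107006 and 128351 in treated and 128202, 104008, 116284 and 131016 in untreated livers. Its ratios were -0.23, -0.21, -0.12 and -0.030, a mean of -0.15 ± 0.091 (SD, n = 4) at adjusted p = 0.165. At its intensity bin, centred near a log2 intensity of 16.7, the median ratio of all genes was -0.097, with quartiles of -0.21 and 0.0032. The mean of Col18a1 thus lay between the quartiles of all genes of like brightness. Whether brightness had a part in that value was not tested.

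**Figure D3:**
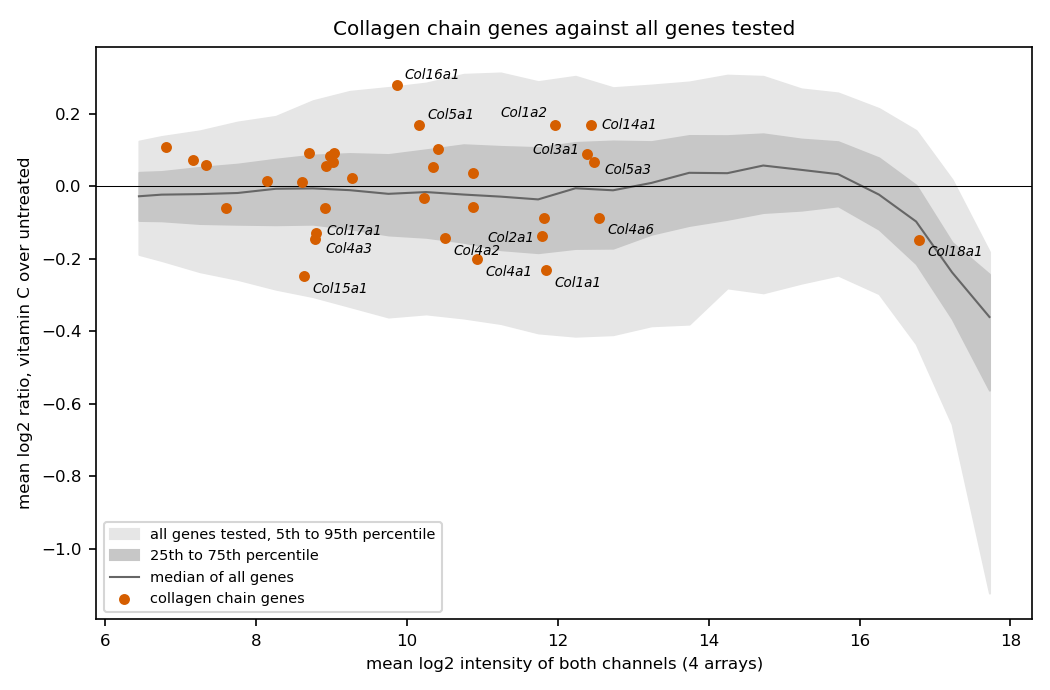
Mean log2 ratio of vitamin C over untreated (vertical axis) against mean log2 intensity of both channels (horizontal axis, 4 arrays); points are collagen chain genes, the line is the median of all genes tested in bins of intensity and the bands its quartiles and its 5th to 95th percentiles. The band bends below 0 for the brightest genes, where Col18a1 lies near the median of its bin.

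Fibril-associated chains, which coat or bridge fibrils, held both the highest mean and the widest spread. Col16a1 had 978, 809, 981 and 1411 in treated and 898, 747, 729.6 and 1034 in untreated livers. Its ratios of 0.12, 0.12, 0.43 and 0.45 were above 0 on every array, and replicates 3 and 4 were well above replicates 1 and 2. The mean was 0.28 ± 0.18 (SD, n = 4), at adjusted p = 0.145 in limma. Col14a1, known for binding type I fibrils through decorin, had 5464, 4591, 6292 and 7641 in treated and 5858, 4953, 4778 and 5439 in untreated livers. Its ratios of -0.10, -0.11, 0.40 and 0.49 fell on both sides of 0, below it on replicates 1 and 2 and high on replicates 3 and 4. Its mean was 0.17 ± 0.32 (SD, n = 4), and that SD was the largest of the 34 genes. Col19a1 was above 0 on every array at 0.088, 0.11, 0.14 and 0.031, a mean of 0.092 ± 0.046 (SD, n = 4), but its other 2 probes gave -0.19 ± 0.14 and -0.11 ± 0.081 (SD, n = 4). The type IX chains decorate cartilage fibrils and assemble from Col9a1, Col9a2 and Col9a3. Col9a2 had 3504, 4068, 3128 and 3306 in treated and 3803, 4483, 3279 and 3369 in untreated livers, and ratios of -0.12, -0.14, -0.068 and -0.027. Col9a3 gave -0.094, -0.10, -0.015 and -0.032 and Col9a1 0.074, 0.041, 0.17 and -0.056. Col9a1 and Col9a3 were dim, at mean log2 intensities of 7.33 and 7.60, against 11.8 for Col9a2. Col9a2 and Col9a3 were below 0 on every array, at means of -0.088 ± 0.051 (SD, n = 4) and -0.060 ± 0.043 (SD, n = 4), and Col9a1 was above 0 on 3, at 0.058 ± 0.095 (SD, n = 4).

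The beaded filaments of type VI link cells to the fibrillar matrix. Col6a1 had 515, 457, 464 and 655 in treated and 477, 469, 452 and 560.3 in untreated livers, and ratios of 0.11, -0.036, 0.038 and 0.23. Col6a2 had 473, 564, 525 and 596 in treated and 428, 546, 507 and 546 in untreated livers, and ratios of 0.14, 0.046, 0.048 and 0.13. Their means were nearly equal, 0.085 ± 0.11 (SD, n = 4) and 0.091 ± 0.052 (SD, n = 4), and Col6a2 was above 0 on every array. They had the same sign on 3 of 4 arrays. The short-chain network collagens gave 0.053 ± 0.056 (SD, n = 4) for Col8a1 and 0.016 ± 0.18 (SD, n = 4) for Col8a2, chains found around vessels, and 0.072 ± 0.16 (SD, n = 4) for Col10a1, the chain of hypertrophic cartilage. The type VIII chains had the same sign on all 4 arrays. Replicate 2 was the lowest array for both of them and the highest for Col10a1. Col7a1, which builds the anchoring fibrils of skin, was below 0 on every array at -0.023, -0.027, -0.11 and -0.076, a mean of -0.060 ± 0.044 (SD, n = 4).

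The transmembrane collagens sit in the cell surface and are known mainly from epithelium, muscle and nerve. Col17a1, a hemidesmosome component, had 287, 419, 470.0 and 577 in treated and 316, 453, 540.4 and 603 in untreated livers. Its ratios of -0.14, -0.11, -0.20 and -0.062 were below 0 on every array, a mean of -0.13 ± 0.058 (SD, n = 4) at adjusted p = 0.165 in limma. Col25a1 was above 0 on every array, at 0.022, 0.042, 0.015 and 0.15, a mean of 0.057 ± 0.063 (SD, n = 4). Col23a1 had a mean of 0.067 ± 0.080 (SD, n = 4), and Col13a1, found at neuromuscular junctions, had -0.058 ± 0.15 (SD, n = 4). The means of these 4 genes lay on both sides of 0.

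How far these values describe liver collagen depends on signal and on the probe chosen. All 60 probes of the collagen chain genes were well above background in both channels on every array, but so were 96.4% of all genes tested, including 854 of 872 olfactory receptor genes, which liver is not known to express. The median log2 intensity of those receptor genes was 10.2, and 18 of the 34 collagen chain genes were dimmer than that on average. Among collagen chain genes with more than 1 probe, 12 had all probes on the same side of 0, and 10 had a probe on the other side. Such a share was not computed over all genes, so whether these counts are particular to collagen chain genes is not known. Col1a1 is among the 10: its other probes gave -0.078 ± 0.034 and 0.12 ± 0.19 (SD, n = 4). Col17a1 had a second probe at 0.027 ± 0.14 (SD, n = 4), and over both probes its mean was -0.051. Col2a1 and Col18a1 also had a second probe above 0, at 0.087 ± 0.040 and 0.055 ± 0.087, the latter with a log2 intensity of 15.5. The second probes of Col16a1 and Col14a1 gave 0.037 ± 0.091 and a mean near 0 with an SD of 0.12. Col5a1 had both probes above 0, the second at 0.13 ± 0.094 (SD, n = 4), and Col15a1 both below, the second at -0.051 ± 0.16.

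**Figure D4:**
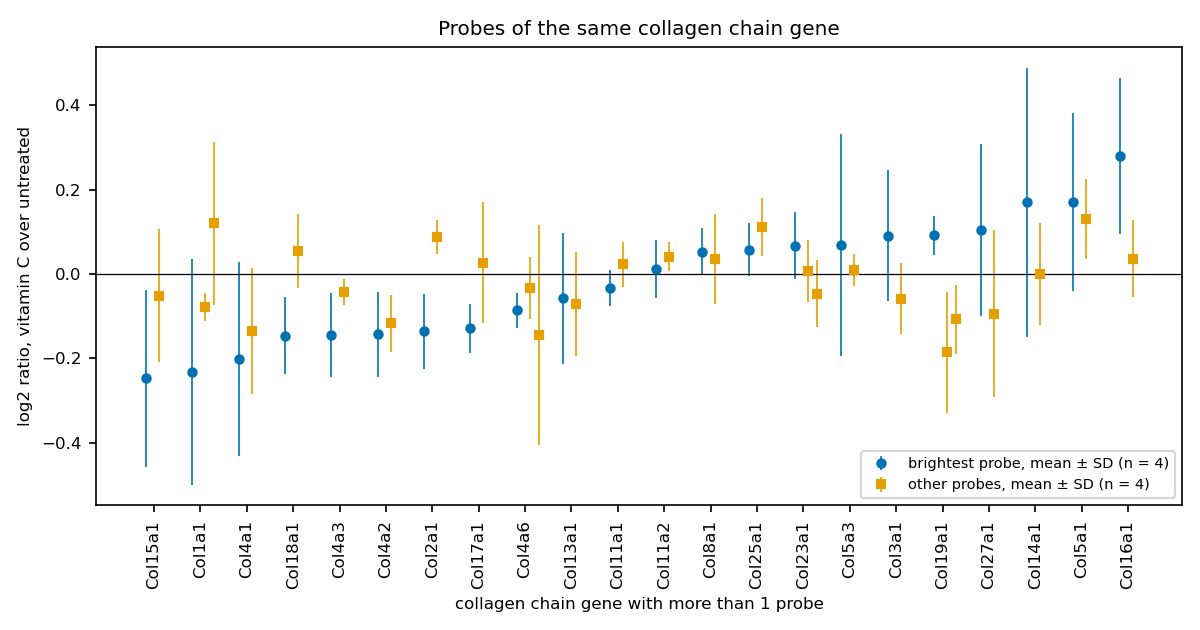
Log2 ratio of vitamin C over untreated (vertical axis, mean ± SD of 4 arrays) for the 22 collagen chain genes with more than 1 probe (horizontal axis, ordered by the brightest probe); circles are the brightest probe and squares the others. The squares lie nearer 0 than the circle for Col1a1, Col15a1, Col14a1 and Col16a1, and for Col1a1, Col2a1, Col18a1 and Col19a1 circle and at least 1 square lie on opposite sides of 0.

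Genes that act on collagen chains after translation had means on both sides of 0. In the lists described from here on, 0 genes passed the adjusted threshold of limma. That count also depended on the processing: a list had 0 to 8 such genes without replicate 2, 0 to 7 without loess and 0 to 2 with separate channels. Of all genes, 10.1% passed as higher and 18.1% as lower without replicate 2, and 14.0% and 17.0% without loess. With separate channels these shares were 1.79% and 1.07%. The counts that follow are at an unadjusted p under 0.05, which 11.1% of all genes met as higher and 16.5% as lower, and list medians are given for replicates 1 to 4. Of 20 genes of collagen hydroxylation and folding, 4 were higher and 1 lower, with medians of 0.075, 0.049, -0.012 and 0.030. P4ha2, a catalytic subunit of the prolyl hydroxylase, had a mean log2 ratio of -0.31 ± 0.13 (SD, n = 4), and the collagen chaperone Fkbp10 had 0.27 ± 0.12 (SD, n = 4). The 20 genes thus included both signs, with replicate 1 the highest array. Of 11 genes of procollagen trimming and crosslinking, 1 was higher and 1 lower, with medians of -0.085, 0.055, 0.042 and 0.048. Loxl1, an oxidase that crosslinks fibres, had 0.18 ± 0.062 (SD, n = 4), and Bmp1, which removes the C-propeptide, had -0.18 ± 0.13 (SD, n = 4). Among 19 genes of collagen breakdown and its inhibitors, 2 were higher and 4 lower, with medians of -0.030, -0.050, -0.020 and 0.063. The protease inhibitor Timp2 had -0.25 ± 0.16 (SD, n = 4), and Pepd, which frees proline from dipeptides, had 0.23 ± 0.15 (SD, n = 4).

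Partners of collagen in the matrix and at the cell surface were mixed as well. Among 24 genes of collagen-binding matrix, 2 were higher and 4 lower, with medians of 0.017, -0.14, 0.060 and 0.10. Postn, a matrix protein that aids fibril assembly, had 0.39 ± 0.27 (SD, n = 4), and Fbn1, the fibrillin of microfibrils, had -0.33 ± 0.24 (SD, n = 4). Of 7 collagen receptors, 1 was higher and 0 lower, with medians of -0.024, -0.048, 0.12 and 0.23. Ddr2, a receptor kinase for fibrillar collagen, had 0.18 ± 0.17 (SD, n = 4), and the integrin chain Itga11 had -0.10 ± 0.053 (SD, n = 4). Of 19 genes of TGF-beta and PDGF signalling, pathways known to drive collagen synthesis in stellate cells, 6 were higher and 5 lower, with medians of 0.0064, -0.014, 0.16 and 0.23. The inhibitory Smad7 had 0.71 ± 0.43 (SD, n = 4), and the transducer Smad3 had 0.21 ± 0.085 (SD, n = 4). For the receptor and signalling lists, replicates 3 and 4 were the higher arrays. Gulo, which makes ascorbate in mice, had -0.29 ± 0.15 (SD, n = 4).

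Markers of the cells that make collagen were measured in the same livers. In bulk tissue, fewer cells of a type and less RNA per cell cannot be told apart. Of 14 stellate cell markers, 3 were higher and 1 lower, and the medians were 0.050, -0.0086, 0.11 and 0.12. Pth1r had 0.42 ± 0.31 (SD, n = 4) and Ngfr -0.50 ± 0.40 (SD, n = 4), and the brightest markers, Ecm1 and Colec11, had 0.34 ± 0.29 (SD, n = 4) and 0.18 ± 0.20 (SD, n = 4). Summed over the 14 markers, all well above background, normalized intensity ranged from 73475 to 128588 in treated and from 76237 to 96091 in untreated livers. Such a sum is weighted to the brightest probes: Ecm1 had a mean log2 intensity of 15.3, against a median of 11.1 over the 14. The ranges also do not keep the pairing of livers on an array. Of 10 sinusoidal endothelial markers, 2 were higher and 0 lower, with medians of 0.071, -0.13, 0.18 and 0.23. Stab1 had 0.34 ± 0.31 (SD, n = 4) and Gpr182 0.48 ± 0.49 (SD, n = 4), and the brightest, Clec4g and Fcgr2b, had 0.12 ± 0.078 (SD, n = 4) and 0.14 ± 0.24 (SD, n = 4). Sums over the 10 endothelial markers, with the same limits, ranged from 54204 to 79271 in treated and from 57862 to 64452 in untreated livers. Both lists were higher on replicates 3 and 4 than on 1 and 2. The same order was seen for Col1a2, Col5a1, Col14a1 and Col16a1, picked out after their values were seen. Col5a3, Col27a1, Col18a1, Col4a3, Col9a2, Col9a3 and Col23a1 had it too. So did the medians of collagen-binding matrix, collagen breakdown, collagen receptors and TGF-beta and PDGF signalling, so the order was not particular to these cell types. The part of stellate and endothelial cells in the collagen values was not tested.

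Other sources of matrix showed no common direction. Of 10 portal fibroblast markers, 1 was higher and 2 lower, with medians of -0.066, 0.0057, 0.068 and -0.0051. Thy1 had 0.52 ± 0.20 (SD, n = 4) and Fbln2 -0.55 ± 0.47 (SD, n = 4), and Gas6, the brightest, had 0.21 ± 0.40 (SD, n = 4). Of 7 myofibroblast markers, which also include Postn, 2 were higher and 2 lower, with medians of 0.038, -0.015, -0.083 and 0.11. Tagln had 0.19 ± 0.11 (SD, n = 4), and Acta2, the muscle actin that marks these cells, had -0.25 ± 0.27 (SD, n = 4). Of 6 vascular smooth muscle markers, 1 was higher and 0 lower, with medians of 0.049, 0.078, 0.040 and 0.11. Lmod1 had 0.13 ± 0.025 (SD, n = 4) and Des 0.071 ± 0.037 (SD, n = 4), and the brightest, Actg2 and Cnn1, had -0.027 ± 0.12 (SD, n = 4) and 0.014 ± 0.083 (SD, n = 4). Of 6 mesothelial markers, 2 were higher and 0 lower, with medians of 0.076, 0.14, -0.0047 and -0.077. Msln had 0.41 ± 0.15 (SD, n = 4), Krt8, which hepatocytes also express, 0.24 ± 0.074 (SD, n = 4), and Gpm6a -0.10 ± 0.045 (SD, n = 4).

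For hepatocytes, 0 of 7 markers were higher and 4 lower, with medians of -0.61, -0.49, -0.52 and -0.27. Alb had -0.70 ± 0.25 (SD, n = 4), Apob -1.71 ± 0.84 (SD, n = 4) and Fabp1 -0.23 ± 0.15 (SD, n = 4). The median log2 intensity of these markers was 17.1, and the median of all genes was -0.097, -0.24 and -0.36 in the bins of intensity centred at 16.7, 17.2 and 17.7. Apob, with a log2 intensity of 15.9, lay below the 5th percentile of -0.24 in the bin at 15.7, where the median of all genes was 0.034. Of 7 Kupffer cell markers 1 was higher and 0 lower, with medians of -0.35, 0.28, 0.053 and 0.41. Timd4 had 0.24 ± 0.23 (SD, n = 4) and Csf1r -0.14 ± 0.22 (SD, n = 4), and the brightest, Cd5l and Clec4f, had 0.26 ± 0.50 (SD, n = 4) and 0.11 ± 0.28 (SD, n = 4). Of 7 cholangiocyte markers 0 were higher and 0 lower, with medians of 0.014, 0.015, -0.15 and 0.10. Cftr had 0.058 ± 0.055 (SD, n = 4) and Spp1, the brightest, -0.092 ± 0.27 (SD, n = 4). Of 5 red blood cell genes 0 were higher and 1 lower, with medians of 0.091, -0.13, -0.34 and -0.24, and the SDs over arrays were wide. Slc4a1 had -0.18 ± 0.17 (SD, n = 4), and the globins Hba-a1 and Hbb-bt had -0.74 ± 0.94 (SD, n = 4) and -0.67 ± 1.03 (SD, n = 4).

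Chondrocyte markers bear on the cartilage chains Col2a1, Col9a1, Col9a2, Col9a3, Col10a1, Col11a1, Col11a2 and Col27a1. Of 7 tested, 2 were higher and 1 lower, with medians of 0.10, 0.035, 0.12 and 0.027. Sox6, the brightest of the list, had 0.26 ± 0.19 (SD, n = 4), and Acan had 0.22 ± 0.13 (SD, n = 4). Liver is not known to hold chondrocytes, yet 7 of 7 markers were well above background, and their median log2 intensity of 7.44 lay below that of the olfactory receptor genes.

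**Figure D5:**
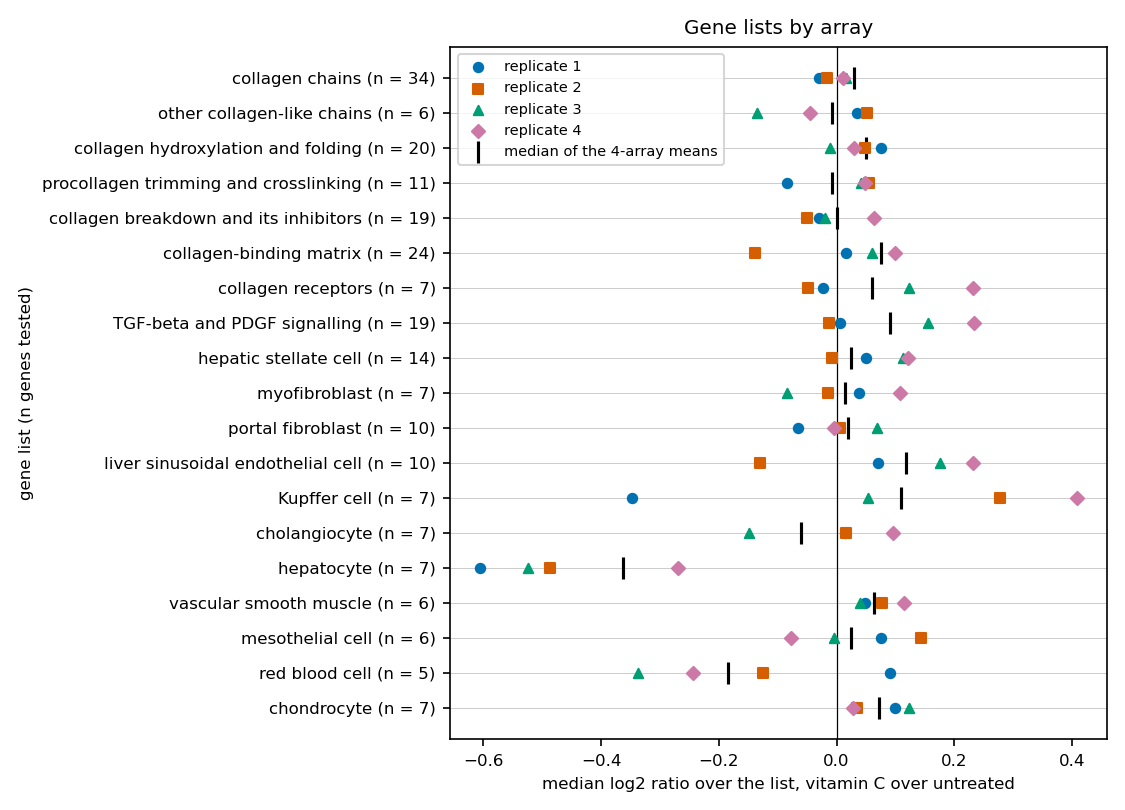
Median log2 ratio of vitamin C over untreated (horizontal axis) of each gene list (vertical axis, with the number of genes tested), with a symbol for each of the 4 replicates and a bar for the median of the 4-array means. The collagen chain genes sit between -0.029 and 0.015 on the 4 arrays, the stellate and sinusoidal endothelial markers are lowest on replicate 2, and the hepatocyte markers lie between -0.61 and -0.27.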

How the data were processed

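Liver RNA was measured on 4 Agilent arrays with 2 colours. The authors deposited scanner files of spot intensity values (median signals and backgrounds, and Agilent's processed signals) and Agilent's own log10 ratio, extracted with Agilent's Feature Extraction software, version 10.5.1.1, per the file headers. The authors also deposited a table of log2 values, for which the submitters' processing notes name limma. Across probes, r between its columns and the Cy5 over Cy3 ratios made here was 0.968, 0.950, 0.974 and 0.980, so its sign is untreated over treated. Column medians were 0.00374, 0.00497, 0.00225 and 0.00136, and its exact scale is unknown. Other columns hold the spot flags, as deposited.

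Background was corrected with normexp (offset 50) on medians, since the files used here hold no mean signals. Loess was then applied within arrays, giving control spots a weight of 0. Outlier spots were left out, and spots of a probe were averaged. Normalized intensities include the offset and compare the channels of 1 probe only. Of 41174 probes, 25097 (61.0%) matched 1 gene symbol in a RefSeq table of GRCm38.p6. A gene was represented by its brightest probe and kept if that was well above background in a channel on 3 of 4 arrays. The 4 log2 ratios were tested against 0 with limma 3.58.1 in R 4.3.3, with Benjamini-Hochberg adjustment over 31077 genes and a threshold of 0.05. Separate channels used statmod 1.5.0, and figures Python 3.11.15 with matplotlib 3.10.9. With 4 arrays, the smallest two-sided p of an exact sign-flip test is 0.125. The members and the 18 gene lists were chosen with earlier results of these data known. All members were named. Array values were given for liver chains, the 8 brightest members, the 4 of largest SD and those with an unadjusted p under 0.05 and 1 sign. Of each list the 2 genes of smallest p were named, and of cell types the 2 brightest, except 1 gene that is not reported here. In all, 14 alternative settings were computed. Arrays carry no counts, so their number limits the precision.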

Additional observations from a re-analysis of the deposited data

Results flagged for a closer look

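Each group of 4 arrays was searched for a single array far from the other 3, over 34 collagen chain genes and 19 gene lists; chance alone gives about 1 in 20 such groups. Replicate 2 stood apart for 3 genes, at a log2 ratio of 0.17 for Col1a1 (the other arrays were at -0.37, -0.39 and -0.33), -0.0028 for Col2a1 (-0.17, -0.19 and -0.18) and -0.030 for Col8a1 (0.090, 0.078 and 0.073). The share of all genes flagged in this way was not computed, so whether this is particular to collagen chain genes is not known. Over all genes, replicate 2 also stood apart, at r = 0.020, -0.15 and -0.18 with replicates 1, 3 and 4. Replicate 1 stood apart for 1 list, the genes of procollagen trimming and crosslinking, with an array median of -0.085 against 0.055, 0.042 and 0.048. No group was compared with another under the same contrast, since the series holds a single one.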

How the results depend on the processing

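All 34 collagen chain genes were run under 14 alternative settings. Of these values, 441 kept direction and side of the threshold, 22 turned direction (15 genes) and 13 passed the threshold (11 genes). Some settings could not turn a direction: the changed filters on dim probes and the variance trend used the same ratios as the main run. The 441 therefore cannot be read as a measure of how stable the directions were. Without loess, 9632 genes and 10 collagen chain genes passed the adjusted threshold, 3 collagen chain genes were higher and 12 lower at an unadjusted p under 0.05 (19.8% and 27.3% of all genes), and their median was -0.042. That setting turned Col3a1 to -0.042, Col5a2 to -0.042, Col5a3 to -0.059, Col27a1 to -0.041, Col4a4 to -0.12, Col9a3 to 0.12 and Col8a1 to -0.089. Agilent's processed signals left 1 collagen chain gene lower at the unadjusted threshold (13.3% of all genes) and turned Col5a2 to -0.017, Col11a2 to -0.11, Col4a4 to -0.0087, Col6a2 to -0.040, Col9a2 to 0.016 and Col7a1 to 0.014. A common spread turned Col8a2 to -0.012. The mean over all probes of a gene gave 2 higher (10.9% of all genes) and 1 lower (16.1%) at the unadjusted threshold and turned Col19a1 to -0.067. A variance trend gave 3 lower (16.8% of all genes), the deposited log2 values gave 3 lower (16.4%), and separate channels gave 2 higher (12.4%), with 889 genes past the adjusted threshold. Among the gene lists, 8 of 19 genes of TGF-beta and PDGF signalling passed the adjusted threshold without replicate 2 and 7 of 19 without loess. Of 20 genes of collagen hydroxylation and folding 5 passed under either, and of 7 hepatocyte markers 2 and 6. Kupffer cell markers had 0 under all 14 settings. Of all genes, 10.1% passed as higher and 18.1% as lower without replicate 2, and 14.0% and 17.0% without loess. The cause was not tested. Leaving out 1 replicate each gave 0 to 8764 genes and 0 to 3 collagen chain genes past the adjusted threshold, the highest without replicate 2, and 0 to 2 higher and 1 to 5 lower collagen chain genes at the unadjusted one. The ranges of genes that turned were -0.022 to 0.10 for Col8a2, -0.013 to 0.041 for Col5a2, -0.0042 to 0.11 for Col10a1, -0.0088 to 0.18 for Col5a3, -0.018 to 0.035 for Col11a2 and -0.12 to 0.0054 for Col13a1. The test of the 4 ratios is itself paired, since each array holds a treated and an untreated liver. Normexp on mean signals and the slide as a block were not run, since the files used here hold medians and the arrays share 1 slide and 1 scan. Signal over background limits the dim chains: 18 of 34 lay below the median intensity of olfactory receptor genes. The median over all genes tested, 9.61 in log2, also lay below that of the receptor genes, 10.2.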

Other observations

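Collagen-like chains outside the 38 genes were also measured. Of 6 tested, 0 were higher and 2 lower at an unadjusted p under 0.05 in limma (11.1% and 16.5% of all genes), and 0 passed the adjusted threshold. Of the 6, 3 passed without replicate 2, where 10.1% of all genes passed as higher and 18.1% as lower. In the separate run without loess 3 passed, where these shares were 14.0% and 17.0%. With separate channels 1 passed, where they were 1.79% and 1.07%. Col26a1 had log2 ratios of -0.49, -0.13, -0.59 and -0.52 on replicates 1 to 4, a mean of -0.43 ± 0.21 (SD, n = 4). Col28a1 had -0.30, 0.057, -0.37 and -0.48, a mean of -0.27 ± 0.23 (SD, n = 4). The mean of Col26a1 lay below that of every one of the 34 collagen chain genes, of which Col15a1 was the lowest at -0.25. The median over the 6 genes was -0.0084.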
